A study of Homo sapiens with 8 samples.

Results

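The genes described here are 9 components of the mitochondrial, or intrinsic, route to apoptosis, measured in KYSE150 cells, a long-established line from an esophageal squamous cell carcinoma. They were chosen by name (MCL1, BCL2L1, BAX, BAK1, BCL2L11, BID, APAF1, CASP9 and CASP8). All 9 are among the 15852 genes of the deposited count table, and all 9 had enough counts to be tested, as did 11841 genes in all. RNA was sequenced from 4 libraries with BOLA3-L knockdown and 4 control libraries. The genotype ShBOLA3-L names a short hairpin RNA against the BOLA3-L isoform, in a study of how HNRNPC affects inclusion of exon 3 of BOLA3. The control libraries are labelled as control, and the labels name no further treatment for either group. Only 1 cell line was used, and the number of hairpins or clones is not given in the sources used here. Nor is it stated that libraries came from different cultures, and p-values therefore measure only the spread between these libraries, which may be technical.

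In the intrinsic pathway, BAX and BAK1 form pores in the outer mitochondrial membrane and let cytochrome c into the cytosol. Pro-survival members of the BCL2 family, such as MCL1 and the product of BCL2L1, hold them in check, and BH3-only proteins, such as BIM (encoded by BCL2L11) and BID, relieve that restraint or activate the pores directly. Released cytochrome c drives APAF1 to assemble into the apoptosome, which activates CASP9 and with it the caspase cascade. CASP8 belongs to the death receptor route and connects to the mitochondria by cleaving BID.

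Of the 9 genes, 2 fell after BOLA3-L knockdown, and both fell in 4 of 4 libraries. APAF1, the scaffold of the apoptosome, stood at 61.9% of control, and BCL2L1, which encodes the pro-survival protein BCL-XL, at 86.5% of control. None of the 9 rose (0 in edgeR's quasi-likelihood test, where 15% of tested genes rose, 0 when p was left unadjusted, where 40.8% passed 0.05 in either direction, and 0 in DESeq2, where 14.7% rose). The 2 of 9 called are read against a background of 30.7% of all tested genes called in either direction and 15.6% called as falling, so the share of the 9 that changed (22.2%) was not above that of the whole table. DESeq2 also called 2 of the 9, against 30% of its tested genes (15.3% falling), and limma on log2 FPKM called the same 2, against 30.1% (17.3% rising and 12.8% falling). With the replicate number as a block it was again 2, against 28.6%. The median log2 change of the 9 was 0.02, against 0.00 over all tested genes, and the median absolute log2 change was 0.10, against 0.11.

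The 250 bases before the annotated start are shown for the 2 genes that fell, whose log2 changes differed in size (-0.69 for APAF1 and -0.21 for BCL2L1). Capitals mark matches to the GC box (GGGCGG), the E2F site (TTTCGCGC or TTTGGCGC), the CCAAT box (CCAAT) and the TATA box (TATAAA), searched on both strands. The sequences are RefSeq's on GRCh38.p14, written 5′ to 3′ on the strand of the gene, which is the plus strand for APAF1 (chr12:98645040-98645289) and the minus strand for BCL2L1 (chr20:31723964-31724213, the first of its listed starts).
APAF1: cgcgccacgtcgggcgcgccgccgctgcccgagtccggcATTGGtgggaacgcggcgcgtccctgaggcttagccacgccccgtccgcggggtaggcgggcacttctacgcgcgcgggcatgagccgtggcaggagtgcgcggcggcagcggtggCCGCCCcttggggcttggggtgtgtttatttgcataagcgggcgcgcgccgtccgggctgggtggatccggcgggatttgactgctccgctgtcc
BCL2L1: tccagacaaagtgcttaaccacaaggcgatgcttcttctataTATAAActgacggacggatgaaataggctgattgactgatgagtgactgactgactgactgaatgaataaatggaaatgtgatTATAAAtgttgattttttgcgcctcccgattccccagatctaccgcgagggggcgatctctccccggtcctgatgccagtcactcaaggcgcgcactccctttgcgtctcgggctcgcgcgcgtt

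The windows differ in composition, with 73.6% GC and 38 CG pairs for APAF1 and 50% GC and 17 CG pairs for BCL2L1. APAF1 held 1 GC box and 1 CCAAT box, each on the reverse strand, which occur in 68.2% and 35.4% of the 9615 promoters of tested genes searched in the same way. BCL2L1 held 2 matches to the TATA box, a motif found anywhere in the window in 5.24% of them. The matches lay at -208 to -203 and at -125 to -120 from the annotated start. Neither window held an E2F site (1.74% of promoters), a FOXO site (GTAAACA, 1.85%) or a p53 decamer (4.53%), and no match overlapped another. A match describes the letters of the window, and 8 of the 9 genes had an entry in the promoter table.

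APAF1 (identifier 317, chromosome 12, 98645290 to 98735433 in GRCh38) showed the largest change of the 9. It was counted at 33.6, 27.2, 31.9 and 28.7 CPM (counts scaled to library size and by the trimmed mean of M-values) in BOLA3-L knockdown replicates 1 to 4 and at 48.5, 44.1, 49.3 and 53.9 CPM in control replicates 1 to 4. All 4 knockdown libraries lay below all 4 controls, a separation of the groups that 30.2% of tested genes shared. The means were 30.3 ± 2.89 and 48.9 ± 3.99 CPM (SD, n = 4 each), from 961 to 1773 counts per library. This is a log2 change of -0.69 (edgeR adjusted p 6.5e-07; SE 0.0700), which placed APAF1 at rank 160 by p among tested genes, with 3.59% of them changed by more in absolute terms. Over the 70 ways to assign the libraries, the exact permutation p was 0.0286 (two-sided), which is the least they can give. With any single library left out the log2 change stayed between -0.74 and -0.64. In bulk RNA a lower level per cell and fewer cells that express a gene cannot be told apart. On 9.48% of its exon bases APAF1 overlaps the gene ANKS1B on the opposite strand, and ANKS1B held at most 3 counts in any library.

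The libraries also differ in the markers of the line. All 8 squamous markers were detected and fell, where 15.6% of all tested genes fell. Their summed levels were 2775 to 3157 CPM in knockdown libraries and 4556 to 4616 CPM in controls, most of it KRT5. Of 7 listed fibroblast markers 6 stayed below 1 CPM in every library, and the list summed to 4.53 to 7.26 CPM after knockdown and 9.94 to 14.8 CPM in controls, most of it COL1A1. The part of these shifts in the results was not tested. Of 6 leukocyte markers 5 stayed below 1 CPM and the sum, 73.9 to 79.5 CPM after knockdown and 77.6 to 84.5 CPM in controls, was nearly all CD68, which shares 90.4% of its sequence windows with another annotated gene. Of 5 endothelial markers 4 stayed below 1 CPM, with sums of 1.96 to 2.56 CPM after knockdown and 1.00 to 1.91 CPM in controls. BOLA3, counted without regard to isoform, stood at 6.05 to 7.29 CPM in knockdown libraries and 19.1 to 21.8 CPM in controls (log2 change -1.66, edgeR adjusted p 6.9e-11). Depth was 31178036 to 35147860 counts per library. BOLA3-L knockdown replicate 1 stood apart from the other 3 on the second principal component (14.4% of the variance), at 20.1 against -10.1 to -4.81.

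**Figure D1:**
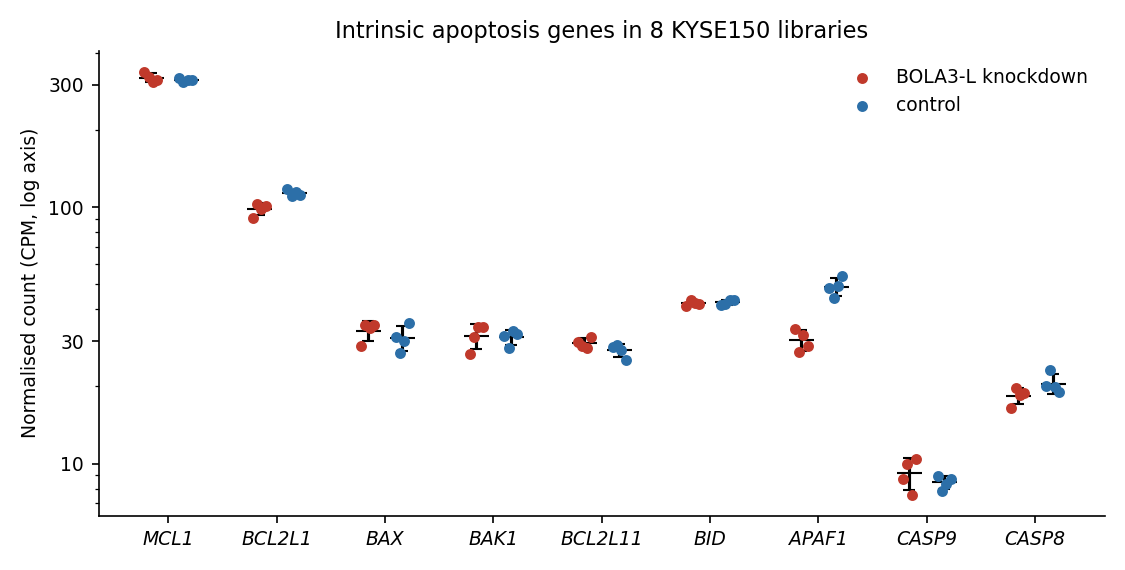
Normalised counts of the 9 genes (CPM, log axis) in BOLA3-L knockdown libraries (red, left) and control libraries (blue, right), with the mean (black line) and SD (bars) of 4 libraries. APAF1 and BCL2L1 are the genes whose groups do not overlap, and MCL1 stands above all others in CPM, which is not corrected for gene length.

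Among the pro-survival genes, BCL2L1 (identifier 598, chromosome 20, 31664452 to 31723963) was counted at 90.8, 102.5, 97.9 and 101.2 CPM in knockdown replicates 1 to 4 and at 117.8, 110.5, 114.3 and 111.3 CPM in control replicates 1 to 4. The highest knockdown library lay below the lowest control. The means were 98.1 ± 5.23 and 113.5 ± 3.32 CPM (SD, n = 4 each), a log2 change of -0.21 (SE 0.0444, 95% interval -0.30 to -0.12, edgeR adjusted p 0.00155; exact permutation p = 0.0286). Changes larger than this in absolute terms were seen in 26.5% of tested genes. The log2 change stayed between -0.23 and -0.17 with any single library left out. BCL2L1 gives rise to a long, pro-survival splice form and a short, pro-apoptotic one, which counts per gene do not separate. On 43% of its exon bases BCL2L1 overlaps an annotated antisense gene, ABALON, and whether the counting used strand is not given in the sources used here, so reads of the antisense gene may be included.

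MCL1 (identifier 4170, chromosome 1, 150574558 to 150579610), a pro-survival protein with a short half-life, was counted at 337, 323, 308 and 313 CPM in knockdown replicates 1 to 4 and at 318, 306, 312 and 312 CPM in control replicates 1 to 4. The groups overlapped, and the log2 change of 0.04 (95% interval -0.04 to 0.11, edgeR adjusted p 0.461) leaves room for levels between 0.97 and 1.08 times control. BCL2 itself was low, at 6.73 ± 0.850 CPM after knockdown and 7.62 ± 0.299 CPM in controls (SD, n = 4 each; log2 change -0.18, edgeR adjusted p 0.211), and was called as falling without knockdown replicate 1 (-0.27, adjusted p 0.0453). BCL2L2, which encodes the pro-survival protein BCL-W, rose to 47.7, 45.4, 48.5 and 44.4 CPM in knockdown replicates 1 to 4, against 39.0, 38.2, 38.9 and 40.3 CPM in control replicates 1 to 4 (log2 change 0.25, SE 0.0499, edgeR adjusted p 9.2e-04). Every knockdown library was above every control. BCL2L2 shares 14.8% of its sequence windows with the readthrough gene BCL2L2-PABPN1, which stayed below 0.5 CPM in every library. BCL2A1 had at most 1 count per library and was not tested.

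**Figure D2:**
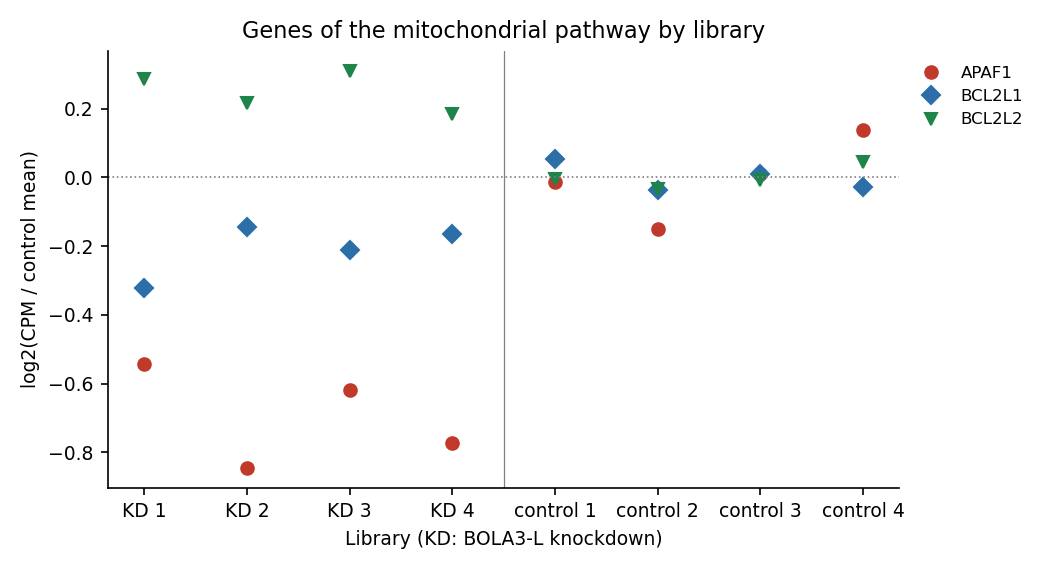
Log2 of CPM over the control mean in each library for APAF1, BCL2L1 and BCL2L2, with the 4 BOLA3-L knockdown libraries on the left and the 4 controls on the right. In all 4 knockdown libraries BCL2L2 is above its controls, and APAF1 and BCL2L1 are below theirs.

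Levels per gene length are given by the deposited FPKM values (fragments per kilobase and sequencing depth). Setting genes side by side on them rests on the 1 length used per gene, whose origin is not given in the sources used here. For BAX it was 894 bases, against 2587 annotated exon bases (GENCODE v29), and for BCL2L11 7700, against 6658. The 4 pro-survival genes summed to 129 ± 2.47 FPKM after knockdown and 129 ± 2.12 FPKM in controls (SD, n = 4 each). MCL1 made up 63.1 ± 1.48% of that sum after knockdown and 61.0 ± 0.200% in controls. The share of BCL2L1 was 26.1 ± 1.59% after knockdown and 29.85 ± 0.421% in controls, and that of BCL2L2 was 10.3 ± 0.483% after knockdown and 8.57 ± 0.207% in controls. The ratio of BCL2L2 to BCL2L1 in FPKM was 0.366 to 0.437 in knockdown libraries and 0.276 to 0.302 in controls. These shares and ratios follow from the changes of the single genes above and were not tested.

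The pore-forming genes did not pass the test. BAX (identifier 581, chromosome 19, 48954875 to 48961798) was counted at 28.7, 34.8, 33.9 and 34.7 CPM in knockdown replicates 1 to 4 and at 31.1, 27.1, 30.1 and 35.5 CPM in control replicates 1 to 4. The groups overlapped at both ends, with knockdown replicate 1 under 3 of the 4 controls and control replicate 4 above all knockdown libraries. The log2 change was 0.10 (95% interval -0.07 to 0.26, edgeR adjusted p 0.379). Without BOLA3-L knockdown replicate 1 it was 0.16 and passed the threshold (edgeR adjusted p 0.0325, in a fit where 21.2% of tested genes rose and 21.5% fell), and over all single libraries left out it ranged from 0.04 to 0.17 (adjusted p 0.0325 to 0.762). The transcripts of BAX, BAK1 and BCL2L1 have the highest GC content of the 9 genes (58.9%, 58.8% and 56.9%), and knockdown replicate 1 was the lowest library of the 8 for BAK1 and BCL2L1 and the next to lowest for BAX. It was also the lowest for BID (49.7% GC) and for CASP8 (42.6% GC), and the highest for MCL1 (45.1% GC). The part of GC content in these values was not tested. With offsets corrected for GC content, the log2 change of BAX was 0.09 (edgeR adjusted p 0.244).

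BAK1 (identifier 578, chromosome 6, 33572552 to 33580276) was counted at 26.7, 31.2, 34.0 and 34.0 CPM in knockdown replicates 1 to 4 and at 31.5, 28.1, 32.8 and 31.9 CPM in control replicates 1 to 4. Knockdown libraries held both the highest and the lowest value. The log2 change of 0.02 (95% interval -0.13 to 0.17, edgeR adjusted p 0.868) turned to -0.02 without knockdown replicate 3, knockdown replicate 4 or control replicate 2. BAK1 shares 6.98% of its sequence windows with the pseudogene BAK1P1. BOK, a related pore-former, stood at 44.7 to 55.6 CPM after knockdown and 48.3 to 50.7 CPM in controls, with a log2 change of 0.07 (edgeR adjusted p 0.382). Of these 3 pore-forming genes edgeR called 0 (against 30.7% of all tested genes), also when p was not adjusted (against 40.8%). DESeq2 called 0 (against 30%) and limma on log2 FPKM called 0 (against 30.1%). With only 3 genes, 0 called does not set them apart from these shares. Without knockdown replicate 1, BAX and BOK rose (BOK by a log2 change of 0.14, edgeR adjusted p 0.00664).

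Of the BH3-only genes, BCL2L11 (identifier 10018, chromosome 2, 111120914 to 111168445) was counted at 29.9, 28.9, 28.3 and 31.3 CPM in knockdown replicates 1 to 4 and at 28.5, 28.9, 27.7 and 25.3 CPM in control replicates 1 to 4. The 2 highest values were knockdown libraries and the 2 lowest were controls, but the groups overlapped in between. The log2 change was 0.10 (95% interval -0.02 to 0.22, edgeR adjusted p 0.219). On 10.9% of its exon bases BCL2L11 overlaps MIR4435-2HG on the opposite strand. BID (identifier 637, chromosome 22, 17734138 to 17774665) was counted at 41.0, 43.5, 42.2 and 41.9 CPM in knockdown replicates 1 to 4 and at 41.4, 41.7, 43.5 and 43.3 CPM in control replicates 1 to 4. It had the smallest spread of the 9 after knockdown (2.50% of the mean, and 2.53% in controls), and its log2 change of -0.01 had a 95% interval of -0.11 to 0.09 (edgeR adjusted p 0.878). The sign of that value turned without knockdown replicate 1 (0.00) and on log2 FPKM (0.01).

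The other BH3-only genes were PMAIP1 (NOXA), BBC3 (PUMA), BAD, BIK, BMF and HRK. PMAIP1 stood at 13.0 ± 1.03 CPM after knockdown and 11.99 ± 0.741 CPM in controls (SD, n = 4 each; log2 change 0.11, edgeR adjusted p 0.328). BBC3 stood at 4.70 ± 1.04 and 5.25 ± 0.422 CPM (SD, n = 4 each; log2 change -0.16, edgeR adjusted p 0.463). Of the 8 genes tested in this list edgeR and DESeq2 called 0, against 30.7% and 30% of all tested genes. When p was not adjusted 1 passed 0.05, against 40.8% in edgeR. Limma on log2 FPKM with a pseudocount of 1 called BIK as falling (-0.28, adjusted p 0.0279), where 12.8% of tested genes fell. BIK was at 0.454 to 0.705 CPM after knockdown and 0.698 to 1.26 CPM in controls, on 16 to 40 counts per library. Without knockdown replicate 1, BAD rose (log2 change 0.22, edgeR adjusted p 4.0e-04), against 0.11 with all libraries (adjusted p 0.382). BAD, BOK and BIK are named after their values were seen.

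**Figure D3:**
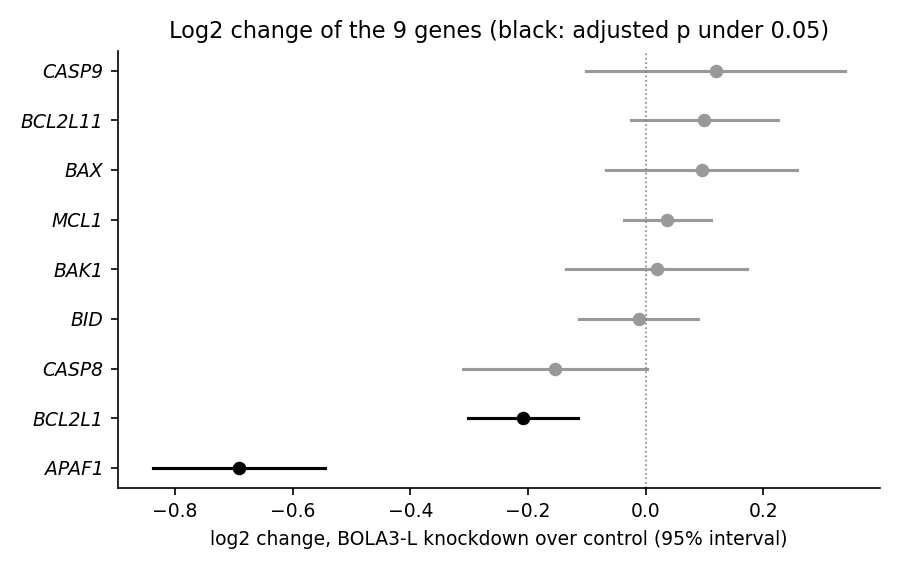
Log2 change of the 9 genes, BOLA3-L knockdown over control, with its 95% interval from edgeR (horizontal lines). Black marks APAF1 (-0.69) and BCL2L1 (-0.21), which had an adjusted p under 0.05, and grey marks the 7 genes whose intervals include 0.

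Downstream of the mitochondria, CASP9 (identifier 842, chromosome 1, 15491401 to 15524912), the initiator caspase that APAF1 activates, was the least abundant of the 9. It was counted at 8.68, 10.01, 7.58 and 10.5 CPM in knockdown replicates 1 to 4 and at 8.92, 7.83, 8.34 and 8.75 CPM in control replicates 1 to 4. The knockdown libraries spread on both sides of the controls, and the log2 change was 0.12 (95% interval -0.10 to 0.34, edgeR adjusted p 0.422) on 248 to 356 counts. CYCS, which encodes cytochrome c, stood at 330.2 ± 17.5 CPM after knockdown and 343 ± 11.7 CPM in controls (SD, n = 4 each; log2 change -0.06, edgeR adjusted p 0.308); without knockdown replicate 1 it was called as falling by 0.08 on the log2 scale (adjusted p 0.0141). AVEN, an inhibitor of APAF1, fell to 9.89 ± 0.728 CPM after knockdown, against 12.2 ± 0.695 CPM in controls (SD, n = 4 each; log2 change -0.31, edgeR adjusted p 0.00920). Within the apoptosome list APAF1 and AVEN therefore fell, and CYCS and CASP9 did not pass the test. In FPKM the ratio of APAF1 to CASP9 was 1.43 to 2.20 in knockdown libraries and 2.85 to 3.23 in controls.

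CASP8 (identifier 841, chromosome 2, 201233463 to 201287711), the initiator of the death receptor route, was counted at 16.5, 19.7, 18.6 and 18.8 CPM in knockdown replicates 1 to 4 and at 20.03, 23.1, 19.8 and 19.1 CPM in control replicates 1 to 4. Of the knockdown libraries 1 lay above the lowest control, and the others lay below all controls. The log2 change was -0.15 (95% interval -0.31 to 0.00, edgeR adjusted p 0.130), and with single libraries left out it lay between -0.19 and -0.09 without passing the threshold.

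On the FPKM scale the mean order over the 8 libraries was MCL1 (80.0), BCL2L1 (36.0), BAX (35.8), BID (15.9), BAK1 (13.7), CASP8 (6.46), APAF1 (5.27), BCL2L11 (3.72) and CASP9 (2.24). This order depends on the length used for each gene. BCL2L1 and BAX overlapped, with BCL2L1 the higher in 3 of 8 libraries. CASP8 and APAF1 overlapped too, with CASP8 the higher in 7, as did APAF1 and BCL2L11, with APAF1 the higher in 6. The APAF1 and BCL2L11 levels met after knockdown, at 3.64 to 4.52 FPKM for APAF1 and 3.71 to 4.08 FPKM for BCL2L11, while in controls APAF1 stood at 5.84 to 7.12 FPKM and BCL2L11 at 3.27 to 3.74 FPKM. The ratio of BAX to BCL2L1 was 1.04 to 1.14 in knockdown libraries and 0.804 to 1.05 in controls, with an overlap of the groups.

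**Figure D4:**
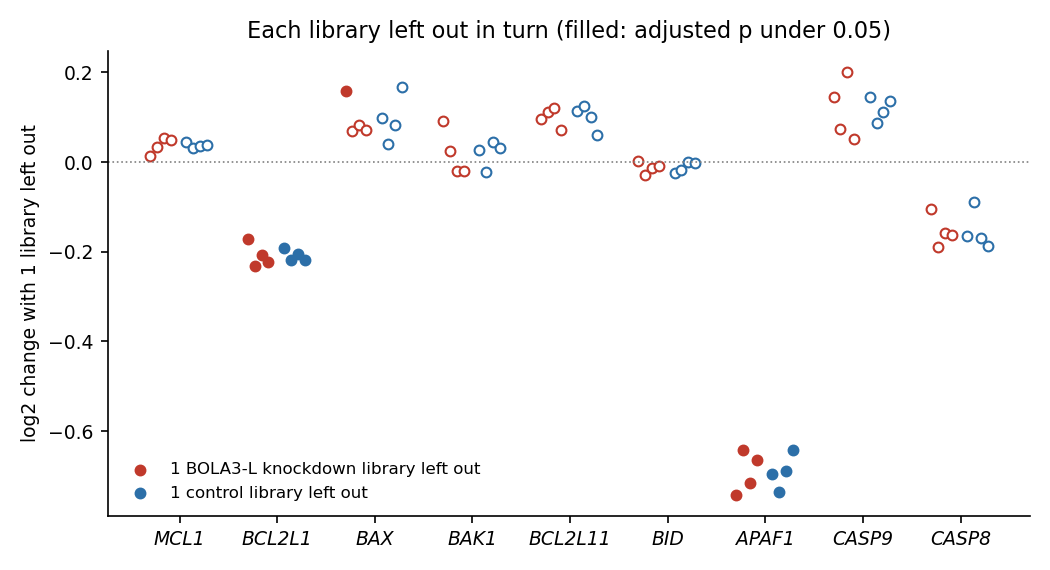
Log2 change of the 9 genes with each library left out in turn, red for a BOLA3-L knockdown library and blue for a control library; filled points had an adjusted p under 0.05. APAF1 (-0.74 to -0.64) and BCL2L1 (-0.23 to -0.17) are filled throughout, and BAX is filled in 1 of 8 fits, the one without knockdown replicate 1.

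The wider apoptosis machinery was read from lists of related genes. Outside the 9 genes, 58 listed genes of the machinery could be tested, of which 4 rose and 10 fell (24.1% called, against 30.7% of all tested genes), with a median log2 change of 0.01. With knockdown replicate 1 left out, 9 of them rose and 18 fell, where 42.7% of all tested genes were called. With any other single library left out, 3 or 4 rose and 8 or 9 fell, with 23.9% to 27.7% of all tested genes called.

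Among caspase substrates and their partners, 2 changes are described. DFFB, the nuclease that cuts DNA after caspase activation, rose to 14.9 ± 1.74 CPM after knockdown, against 11.7 ± 0.381 CPM in controls (SD, n = 4 each; log2 change 0.35, edgeR adjusted p 0.00463). The kinase PAK2, a caspase substrate, fell (-0.14, edgeR adjusted p 0.0195), a call lost without knockdown replicate 2 or 3 or control replicate 4 (adjusted p 0.0728, 0.0677 and 0.0655) and on log2 FPKM.

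Of the other BCL2-related genes, BNIP3 and BNIP3L, receptors for the removal of mitochondria by autophagy, fell. BNIP3 stood at 6.35 ± 0.743 CPM after knockdown and 9.25 ± 0.944 CPM in controls (SD, n = 4 each; log2 change -0.54, edgeR adjusted p 9.8e-04), and BNIP3L at 38.7 ± 3.52 and 50.7 ± 0.649 CPM (SD, n = 4 each; -0.39, edgeR adjusted p 6.4e-05). BCL2L12 rose (log2 change 0.21, edgeR adjusted p 0.00688). Of 11 genes for released factors and the membranes they leave, DNM1L, the GTPase of mitochondrial fission, fell to 210.2 ± 16.4 CPM after knockdown, against 254 ± 6.97 CPM in controls (SD, n = 4 each; -0.27, edgeR adjusted p 2.3e-04). DIABLO, which binds inhibitors of apoptosis, stood at 55.1 ± 1.80 and 58.3 ± 1.04 CPM (SD, n = 4 each; -0.08, edgeR adjusted p 0.193); 33.6% of its sequence windows are shared with another annotated gene. OMA1, a stress-activated protease of the inner membrane, rose by 0.30 on the log2 scale (edgeR adjusted p 0.0229), a call lost without knockdown replicate 2 or control replicate 2, 3 or 4 (adjusted p 0.0556, 0.0562, 0.0622 and 0.0737) and on log2 FPKM with no minimum (0.064).

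Of 6 tested inhibitor of apoptosis genes edgeR called 0 (against 30.7% of all tested genes), also when p was not adjusted (against 40.8%). DESeq2 called 0 (against 30%), as did limma on log2 FPKM (against 30.1%). With GC-corrected offsets 1 of the 6 was called as rising, in a fit where 41.5% of all tested genes were called. XIAP, which binds CASP9, stood at 48.7 ± 5.68 CPM after knockdown and 50.2 ± 1.05 CPM in controls (SD, n = 4 each), with knockdown replicate 1 at 57.1 CPM and the other 3 at 44.8 to 47.2 CPM. Without that replicate 3 of the 6 were called as falling, XIAP among them (log2 change -0.13, edgeR adjusted p 0.0154), and 1 as rising, in a fit where 42.7% of all tested genes were called and 21.5% fell. In the death receptor list 3 of 13 tested genes were called, a share (23.1%) under the 30.7% of all tested genes; all 3 fell and 0 rose (in edgeR and DESeq2; 1 of those higher after knockdown had an unadjusted p under 0.05). TNFRSF1A, the main receptor for TNF, fell by 0.18 on the log2 scale (edgeR adjusted p 0.00555), RIPK1, its adaptor kinase, by 0.17 (adjusted p 0.0263) and TNFRSF10D, a decoy receptor for TRAIL, by 0.20 (adjusted p 0.0266). The call of RIPK1 was lost without knockdown replicate 2 (adjusted p 0.0613) or control replicate 1 (0.0785), 2 (0.0651) or 3 (0.102) and on log2 FPKM (0.0556 to 0.0777), and that of TNFRSF10D without knockdown replicate 2 (0.0572) or 4 (0.0523) or control replicate 2 (0.0779) or 4 (0.0592) and with no filter on low counts (0.0548). With these losses, 1 gene of the list fell without control replicate 2 and 2 fell in limma on log2 FPKM. Without knockdown replicate 2, 2 fell, TNFRSF1A and TNFSF10. Without knockdown replicate 1, 4 fell, in a fit where 21.5% of all tested genes fell. With GC-corrected offsets 3 fell and 1 rose, where 21.4% of all tested genes fell and 20% rose.

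Among genes that act on the stability or location of MCL1 and BIM protein, FBXW7, a ubiquitin ligase subunit for MCL1, fell to 18.6 ± 0.822 CPM after knockdown, against 24.4 ± 2.18 CPM in controls (SD, n = 4 each; log2 change -0.39, edgeR adjusted p 3.5e-04). DYNLL2, a dynein light chain, rose to 136 ± 6.70 CPM, against 113 ± 3.58 CPM in controls (SD, n = 4 each; 0.27, edgeR adjusted p 1.2e-04). The light chain gene DYNLL1 of the same list, named after its values were seen, did not pass the test (-0.03, edgeR adjusted p 0.623). HUWE1, another ligase for MCL1, fell by 0.11 (edgeR adjusted p 0.0268), which was lost without knockdown replicate 2 (adjusted p 0.109) or 4 (0.0523) or control replicate 2 (0.109) or 3 (0.0833) and on log2 FPKM (0.123 to 0.179). Of 14 transcription regulators of BCL2 family genes 2 rose and 8 fell (71.4% called, against 30.7% of all tested genes, of which 15% rose and 15.6% fell), with a median log2 change of -0.16. The list was chosen with earlier results of these data known, so its share is not an unbiased measure. TP63 is also among the squamous markers that fell. Without control replicate 2, 6 of the 14 fell, against 11.9% of all tested genes. TP73, a p53 relative, stood at 6.53, 7.88, 7.49 and 7.14 CPM in knockdown replicates 1 to 4 and at 12.5, 12.3, 12.2 and 12.2 CPM in control replicates 1 to 4 (log2 change -0.76, edgeR adjusted p 2.4e-06). TP63, a squamous lineage factor, fell to 220 ± 11.7 CPM, against 309 ± 5.33 CPM in controls, and JUN, an AP-1 subunit, to 37.6 ± 4.75 CPM, against 52.5 ± 0.929 CPM in controls (SD, n = 4 each; log2 changes -0.49 and -0.48, edgeR adjusted p 3.2e-08 and 4.7e-05). E2F1, a known activator of APAF1, rose to 60.5 ± 4.17 CPM after knockdown, against 51.4 ± 1.88 CPM in controls (SD, n = 4 each; 0.23, edgeR adjusted p 0.00277). FOXO1 and FOXO3, known activators of BCL2L11 that are named after their values were seen, fell by 0.30 and 0.23 on the log2 scale (edgeR adjusted p 8.1e-04 and 0.00116). FOXO3 shares 22.7% of its sequence windows with other annotated genes. STAT3 rose by 0.11 (edgeR adjusted p 0.0191), a call lost without control replicate 3 or 4 (adjusted p 0.0704 and 0.0561).

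**Figure D5:**
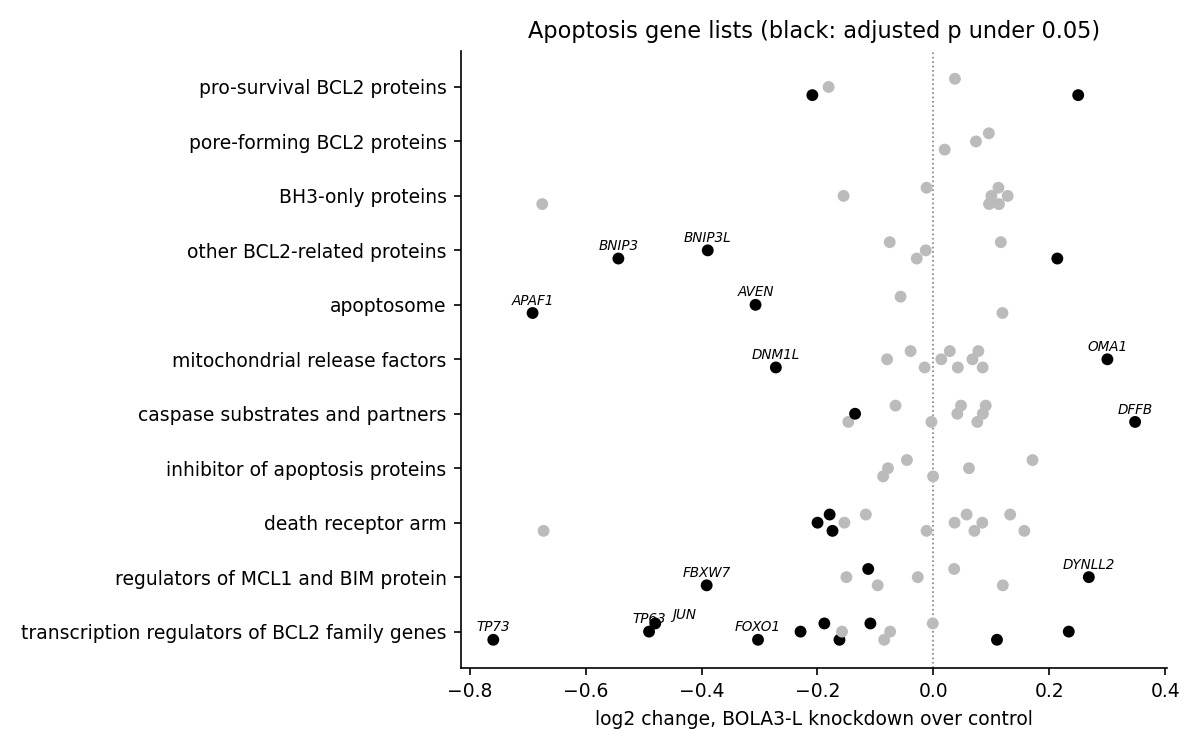
Log2 change of the tested genes of each apoptosis list, BOLA3-L knockdown over control (1 point per gene, genes not reported here left out, spread vertically for legibility; a gene can stand in several lists). Black points had an adjusted p under 0.05, and those changed by more than 0.25 are named; the rows of pore-forming, BH3-only and inhibitor of apoptosis genes hold none.

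The genes whose profile over the 8 libraries was nearest to that of APAF1 were sought among 10142 tested genes that averaged 5 CPM or more, by the root mean square difference of log2 CPM after centring each gene on its control mean. They were TMEM135 (0.0717), SGMS2 (0.0913) and CAV1 (0.0951). TMEM135 averaged 18.9 ± 1.72 CPM after knockdown and 30.1 ± 1.15 CPM in controls, SGMS2 27.4 ± 3.41 and 44.0 ± 1.58 CPM, and CAV1 717 ± 32.9 and 1121 ± 12.2 CPM (SD, n = 4 each). The measure selects genes with a like change between the groups, and their likeness to APAF1 is how they were chosen.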

How the data were processed

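The count table holds raw counts per gene that the authors deposited for 15852 genes in 8 libraries of polyA RNA, read as 150 bp pairs. Reads were filtered with fastp, per the series' design text, and the genome build is hg38, per the submitters' processing notes. Aligner, counter, annotation and strand setting: not given in the sources used here. In all, the deposited FPKM table is the counts scaled by library total and 1 length per gene (110558 of 110558 values above 0, to within 1e-06), so it is no independent measurement.

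Counts were normalized by TMM, filtered with filterByExpr and tested with the quasi-likelihood F-test of edgeR (robust), Benjamini-Hochberg adjusted over 11841 genes at 0.05. The SE is the absolute log2 change over the square root of F, and intervals are 95%. Sequence shared with other genes is the share of 75-base windows, every 25 bases, found in transcripts of other genes (GENCODE v29). Coordinates and promoters are RefSeq's (GRCh38.p14). The 9 genes and the lists were chosen with earlier results of these data known. All 9 are described, with up to 3 called genes per list and direction by smallest p, fixed genes named whatever they did, and the 3 profiles nearest to the member with the smallest p in each direction. Some genes that this rule names are not reported here, although the counts over lists include them.

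The alternatives were RLE or upper quartile normalization, no filter or at least 1 CPM in 4 of the libraries, a replicate block, leaving out each library, DESeq2, and limma on log2 FPKM (pseudocount 1 or 0.1, minimum 0.5 FPKM in 4 libraries, or none). GC-corrected offsets were added after seeing the data. The scripts were tested on simulated data with planted changes. There edgeR recovered 60% of 50 planted 1.25-fold changes, 80% of 50 at 1.5-fold and 94% of 50 at 2-fold, and called 17 unchanged genes. Software was R 4.3.3 with edgeR 4.0.16, DESeq2 1.42.0 and limma 3.58.1, and Python 3.11.15.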

Additional observations from a re-analysis of the deposited data

Results flagged for a closer look

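Of 76 groups of 4 libraries checked, 5 held a library whose gap to its nearest neighbour passed Dixon's critical value at the 95% level, where chance gives about 1 in 20. BAX stood at 28.7 CPM in BOLA3-L knockdown replicate 1, against 33.9 to 34.8 CPM in the other 3. PMAIP1 stood at 11.4 CPM in knockdown replicate 4, against 13.4 to 13.5 CPM in the others, and at 10.9 CPM in control replicate 4, against 12.3 to 12.4 CPM. DIABLO stood at 52.4 CPM in knockdown replicate 3, against 55.8 to 56.2 CPM in the others. TNFRSF1A stood at 81.3 CPM in control replicate 4, against 87.2 to 87.4 CPM in the others.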

How the results depend on the processing

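Over the 10 processing alternatives and the 8 fits without 1 library, 2 of the 9 genes were called in every fit, APAF1 and BCL2L1, except without BOLA3-L knockdown replicate 1, where BAX was the 3rd. APAF1 ranged from -0.74 to -0.56 and BCL2L1 from -0.23 to -0.17 on the log2 scale. BID turned sign on log2 FPKM (0.0084 with pseudocount 0.1, 0.0079 with pseudocount 1, with or without the minimum) and without knockdown replicate 1, over a leave-one-out range of -0.028 to 0.0024. BAK1 ranged from -0.023 to 0.091 with single libraries left out; neither was called in any fit. The number of listed genes called outside the 9 was 27 of 80, and 21 to 41 with 1 library left out, the 41 being without knockdown replicate 1; the cause was not tested. Under the processing alternatives it was 22 to 38, the 38 (13 rising and 25 falling, against 7 and 20) with GC-corrected offsets, where 41.5% of all tested genes were called; among machinery genes 9 rose and 12 fell there, against 4 and 10. Of 809 values for 45 genes followed, 762 kept direction and side of the threshold, 32 lost the call, 8 gained it and 7 changed sign.

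No pairing by replicate number was visible: deviations of same-numbered libraries correlated at 0.00501, 0.00017, 0.0876 and -0.0444. Those of differently numbered libraries correlated at -0.0701 to 0.0691. Such correlations cannot exclude that libraries were prepared in pairs. With the replicate block 3392 genes were called, against 3630 without it, and 2 of the 9 genes and 28 listed genes. CASP9 rests on the fewest counts (248 to 356), and its interval is the widest of the 9.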
